A study of Mus musculus with 12 samples.

Results

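The core circadian clock genes are 10 genes that drive the daily rhythm of most cells: Arntl, Clock, Per1, Per2, Per3, Cry1, Cry2, Nr1d1, Nr1d2 and Dbp. They were taken by name from a deposited table of 24341 genes, and all 10 were found. Their levels were followed through the differentiation of mouse preadipocytes into adipocytes, with and without Acly, the gene of ATP citrate lyase, which cleaves citrate in cytosol and nucleus to yield acetyl-CoA. RNA sequencing was done on 12 libraries of SV40-immortalised cells from adipose tissue of C57Bl/6 mice, in 4 groups of 3. Aclyf/f preadipocytes carry Acly flanked by loxP sites and were the controls at day 0, beside Acly-/- preadipocytes of the same day. Aclyf/f adipocytes and Acly-/- adipocytes were harvested at day 4 after an adipogenic cocktail with rosiglitazone, a PPARgamma agonist, was added. Immortalisation and culture in serum were common to all groups, and the agents of the cocktail were common to both adipocyte groups. The labels do not state how Acly was deleted, how many independent lines there were, the other agents of the cocktail or the hour of harvest. P-values therefore measure the spread between these libraries, which may be technical.

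The clock is a feedback loop of transcription. ARNTL (BMAL1) and CLOCK pair and activate genes that carry an E-box, among them the Per, Cry, Nr1d and Dbp genes. PER and CRY proteins then return to the nucleus and inhibit ARNTL and CLOCK, while the nuclear receptors NR1D1 and NR1D2 (REV-ERBalpha and REV-ERBbeta) repress Arntl, and DBP activates Per genes through D-boxes. Cultured cells each keep such a rhythm, and serum, glucocorticoids and cAMP can set many cells to the same phase. Each group here was sampled on a single day, so a change in a gene's average level and a change in phase or in synchrony between cells cannot be told apart.

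Levels are in FPKM, in which fragment numbers are scaled to transcript length and library depth, so that different genes can be compared per length. Differences are log2 fold changes of FPKM + 1 from limma, with their standard error (SE) or 95% confidence interval. A gene was called at a Benjamini-Hochberg adjusted p under 0.05 over the 11777 genes tested, those with at least 1 FPKM in at least 3 libraries, and all 10 clock genes were among them. Folds are ratios of mean FPKM.

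The libraries held an estimated 6800000 to 13100000 fragments, and their log2 values correlated at 0.992 to 0.996 within groups and 0.936 to 0.985 between groups. Acly itself, measured over the whole gene, stood at 86.9 ± 2.33 FPKM (SD, n = 3) in control preadipocytes against 12.1 ± 0.309 FPKM in those without it, and at 754 ± 52.5 and 12.4 ± 1.17 FPKM in the adipocytes. Summed over 9 adipocyte markers, control adipocytes reached 11206 to 12012 FPKM and Acly-/- adipocytes 6577 to 8113 FPKM. In preadipocytes the sum was 1005 to 1075 FPKM with Acly and 592 to 660 FPKM without, so that it was lower without Acly at both stages. Most of the preadipocyte sum came from Fabp4 (means of 507 and 201 FPKM with and without Acly) and Lpl (524 and 429 FPKM). Plin1 (0.576 and 0.569 FPKM) hardly differed there, and Cfd (1.14 and 1.45 FPKM) was not lower without Acly. Adiponectin, Adipoq, was 544 ± 7.05 and 60.7 ± 1.24 FPKM in the adipocyte groups, and 3.13 ± 0.438 and 2.99 ± 0.634 FPKM in the preadipocyte groups. The marker genes Lep and Pck1 stood at the table's floor of 0.01 FPKM in every group. The sum of 7 preadipocyte markers did not fall with differentiation: it was 991 to 1105 and 1180 to 1588 FPKM in Aclyf/f and Acly-/- preadipocytes, and 3074 to 3959 and 4506 to 4891 FPKM in adipocytes, most of it from Gsn (3229 and 4025 FPKM as adipocyte means). Of the others, Pdgfra (15.5 and 30.3 FPKM), Pdgfrb (12.4 and 34.6 FPKM) and Ly6a (128 and 649 FPKM) had higher means in Acly-/- than in Aclyf/f adipocytes. Cd34 had a lower one (1.08 and 0.398 FPKM), and Dlk1 and Thy1 stayed under 1 FPKM. The means of Pdgfra, Pdgfrb and Ly6a did fall with differentiation in both genotypes. In preadipocytes they were 131, 87.4 and 467 FPKM with Acly and 72.1, 104 and 834 FPKM without. Of 9 macrophage and leukocyte markers, 1 reached 1 FPKM, Cd68, at 32.6 ± 3.12 FPKM in Acly-/- adipocytes and at most 2.75 FPKM as a mean elsewhere, with Ptprc and Itgam at the floor. Endothelial, epithelial, muscle and neural markers summed to at most 6.66 FPKM in any library. The summed adipocyte markers thus moved with genotype at both stages, at day 0 mostly through Fabp4 and Lpl. At day 4 most of the sum was Fabp4 (means of 8835 and 6113 FPKM with and without Acly). Cfd (272 and 18.6 FPKM), Slc2a4 (93.7 and 11.7 FPKM), Cidec (448 and 181 FPKM), Plin1 (196 and 98.4 FPKM) and Lpl (1163 and 984 FPKM) were also lower without Acly there. The part of these markers in the clock gene differences of either stage was not tested. In bulk RNA, fewer cells of a type and less RNA per cell cannot be told apart. Acly-/- preadipocyte library 3 had the largest share of its summed FPKM in its 10 most abundant genes, 15.5%, in a range from 6.21% over the 12 libraries. It had the highest Dbp, Nr1d1, Cry2, Per1 and Per3 values and the lowest Clock and Nr1d2 values among preadipocytes of its genotype. Without it, 5 clock genes in place of 6 were called in preadipocytes, Cry2 being the one lost (0.21, adjusted p = 0.157).

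The regulatory sequence of these genes was searched in the 250 bases before each RefSeq start site (build GRCm38.p6), which were at hand for 9 of the 10 genes in 13 windows, Per2 having no entry. Each motif was searched on both strands, and none of the letter strings contains another. The E-box CACGTG, bound by ARNTL and CLOCK, is in 6.02% of all 32851 such windows and was found before Per1 and Cry1. Its variant CACGTT (3.85% of windows) was found before Cry1, Cry2 and Nr1d1. The D-box, TTATGTAA or TTACGTAA, which DBP and TEF bind, is in 0.931% of windows and was found at 2 places before Per3. A half-site of ROR and REV-ERB receptors, TAGGTCA (2.23% of windows), the cAMP response element TGACGTCA (1.55%) and the full palindromic glucocorticoid response element (0.00913%) had no match in these windows. The windows with a match are given 5′ to 3′ because they hold letters of both arms of the loop, the E-box arm and the D-box arm. Capitals mark the matches, in their orientation on the gene's strand.
Per1, chr11:69098699-69098948, plus strand: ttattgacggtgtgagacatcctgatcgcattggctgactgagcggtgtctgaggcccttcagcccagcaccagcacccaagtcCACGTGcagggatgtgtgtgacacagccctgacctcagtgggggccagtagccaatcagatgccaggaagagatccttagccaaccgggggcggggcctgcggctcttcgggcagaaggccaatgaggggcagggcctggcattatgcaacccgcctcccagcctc
Per3, chr4:151044666-151044915, minus strand: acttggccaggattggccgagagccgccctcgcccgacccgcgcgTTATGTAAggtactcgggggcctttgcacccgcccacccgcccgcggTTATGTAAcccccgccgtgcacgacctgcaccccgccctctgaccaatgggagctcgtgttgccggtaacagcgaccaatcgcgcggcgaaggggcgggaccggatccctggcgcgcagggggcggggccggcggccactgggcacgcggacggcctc
Cry1, chr10:85185055-85185304, minus strand: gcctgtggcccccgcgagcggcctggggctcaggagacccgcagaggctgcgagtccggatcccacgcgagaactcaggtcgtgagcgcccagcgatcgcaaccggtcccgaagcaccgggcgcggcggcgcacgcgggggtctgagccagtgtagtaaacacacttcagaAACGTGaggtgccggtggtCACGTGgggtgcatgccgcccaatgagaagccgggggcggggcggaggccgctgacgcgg
Cry2, chr2:92434070-92434319, minus strand: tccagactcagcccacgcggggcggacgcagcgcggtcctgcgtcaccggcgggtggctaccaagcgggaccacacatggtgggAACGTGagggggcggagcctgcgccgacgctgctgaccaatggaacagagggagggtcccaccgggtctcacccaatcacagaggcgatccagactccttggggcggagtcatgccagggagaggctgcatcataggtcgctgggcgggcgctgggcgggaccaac
Nr1d1, chr11:98775378-98775627, minus strand: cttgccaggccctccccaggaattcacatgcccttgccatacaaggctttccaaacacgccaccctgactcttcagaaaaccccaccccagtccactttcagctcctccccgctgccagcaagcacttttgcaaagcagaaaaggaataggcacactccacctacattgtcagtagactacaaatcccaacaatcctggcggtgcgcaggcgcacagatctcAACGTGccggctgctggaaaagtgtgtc
Counted from the start site, the E-box of Per1 begins at -166, the D-boxes of Per3 at -205 and -158, the E-box of Cry1 at -60 with its variant at -79, and the variants of Cry2 and Nr1d1 at -166 and -28. Per1 has a further start site without a match. A match describes letters and not binding, and motifs outside these windows, as in the bases after a start site, were not searched. Looser forms of the motifs were not searched either, so the absence of a match does not mean that a gene lacks such sites.

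**Figure D1:**
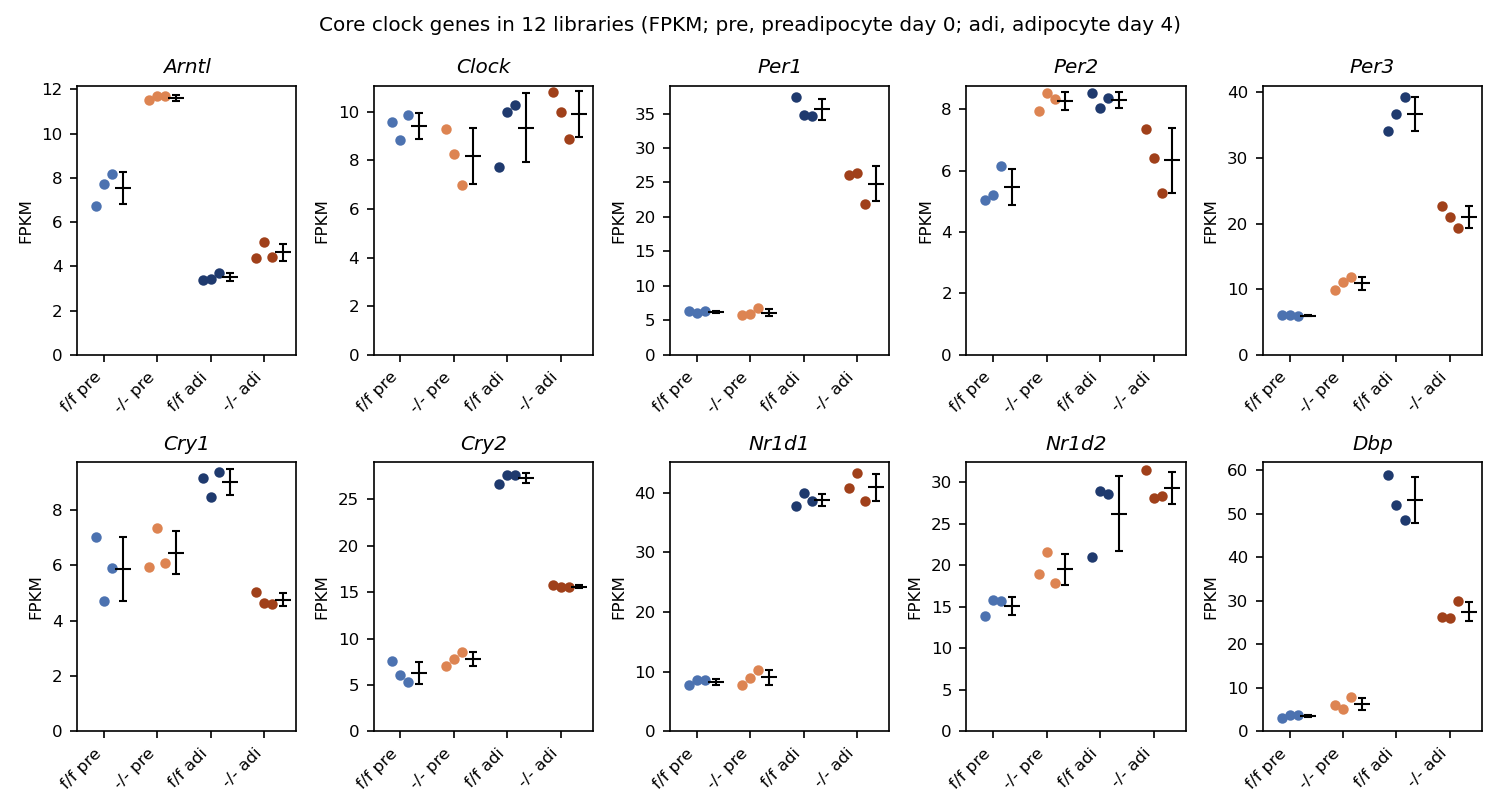
FPKM of the 10 core clock genes in each of 12 libraries (points; f/f, Aclyf/f; -/-, Acly-/-; pre, preadipocytes at day 0; adi, adipocytes at day 4), with the mean and SD of 3 libraries as a bar beside them and axes starting at 0. Dbp went from 3.51 FPKM in Aclyf/f preadipocytes to 53.2 FPKM in Aclyf/f adipocytes and 27.5 FPKM in Acly-/- adipocytes, while Arntl was highest in Acly-/- preadipocytes.

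Differentiation brought a large shift in the clock genes of Aclyf/f cells: Dbp, Per1, Per3, Cry2 and Nr1d1 rose between 4.32-fold and 15.1-fold, Per2, Cry1 and Nr1d2 rose by at most 1.73-fold, and Arntl fell. Limma called 9 of the 10 genes, 8 higher and 1 lower, where 72.5% of all genes tested were called (36.5% higher and 36.0% lower). In Acly-/- cells 9 of 10 were also called, but 6 rose and 3 fell, where 61.4% of all genes were called (30.4% higher and 31.0% lower). The median log2 fold change of the 10 genes was 1.35 in Aclyf/f and 0.73 in Acly-/- cells, against 0.00 for all genes tested in either genotype. Of the 10 genes, 6 differed between genotypes in this change, all toward a smaller rise or a fall in Acly-/- cells (50.2% of all genes tested were called, 26.4% lower and 23.7% higher), with 0 toward a larger rise in limma, also at an unadjusted p under 0.05.

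**Figure D2:**
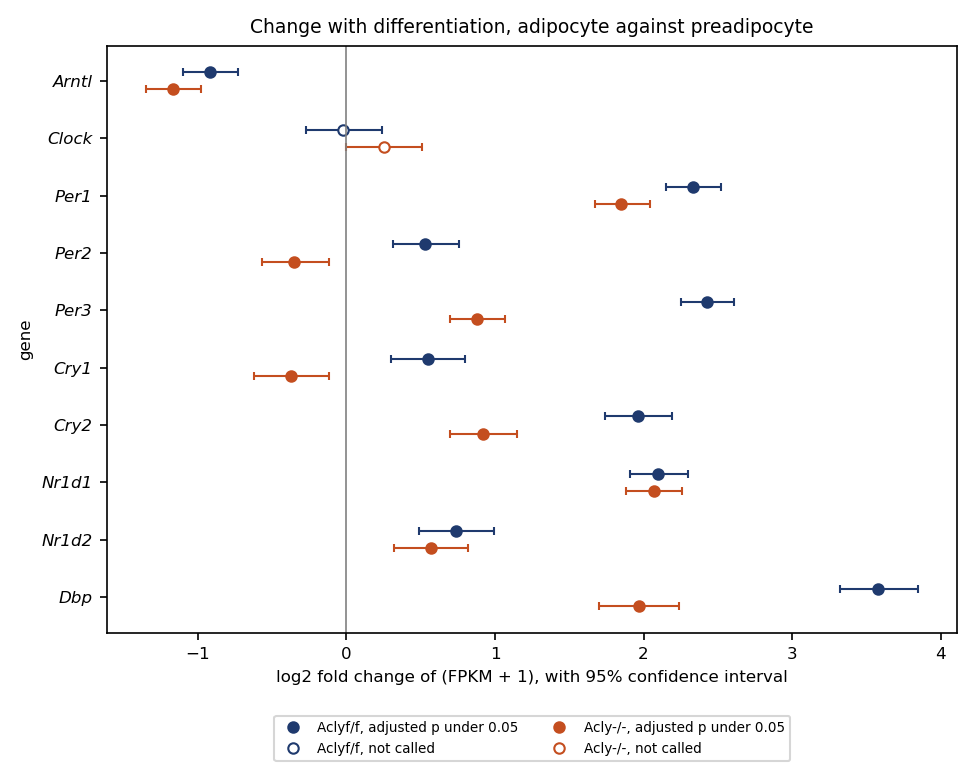
Change with differentiation (x axis, log2 fold change of FPKM + 1, adipocyte against preadipocyte) of each core clock gene (y axis) in Aclyf/f and Acly-/- cells, with 95% confidence intervals; filled points passed an adjusted p of 0.05. Per2 and Cry1 lie to the right of 0 in Aclyf/f cells and to the left in Acly-/- cells, while the points of Nr1d1 (2.10 and 2.07) lie together.

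Of the activators, Arntl (chromosome 7, 113207465 to 113314126, mm10, plus strand), the DNA-binding partner that the loop cannot do without, was 6.73, 7.70 and 8.16 FPKM in Aclyf/f preadipocytes and 11.5, 11.7 and 11.7 FPKM in Acly-/- preadipocytes. In adipocytes it was 3.39, 3.44 and 3.71 FPKM with Acly and 4.38, 5.09 and 4.43 FPKM without. The ranges of all groups were apart, and at either stage the Acly-/- libraries were the higher ones. On differentiation Arntl fell 2.14-fold in controls (log2 fold change -0.92, SE 0.09, adjusted p = 3.78e-07) and 2.51-fold in Acly-/- cells (-1.17, SE 0.09, adjusted p = 6.12e-08). It was 1.55-fold higher without Acly in preadipocytes (0.57, adjusted p = 0.000144) and 1.32-fold higher in adipocytes (0.32, adjusted p = 0.00664), the last call ending when libraries were scaled to 1 FPKM sum (0.25, adjusted p = 0.0564). The genotypes' falls differed by -0.25 (95% interval -0.51 to 0.01, adjusted p = 0.102).

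Clock (chromosome 5, 76209868 to 76304792, minus strand), the partner of ARNTL, varied little: Aclyf/f preadipocytes held 9.58, 8.85 and 9.87 FPKM and Acly-/- preadipocytes 9.31, 8.25 and 7.01 FPKM. Adipocytes held 7.72, 10.0 and 10.3 FPKM with Acly and 10.8, 10.0 and 8.89 FPKM without. All neighbouring groups overlapped, and no contrast was called. Its largest log2 fold change over the 4 pairwise contrasts was 0.25 for differentiation in Acly-/- cells (interval 0.00 to 0.51, adjusted p = 0.0793), where same-numbered libraries deviated together and a fit of those libraries with the replicate block gave adjusted p = 0.0444. That contrast was also called without Acly-/- preadipocyte library 1 (0.34, adjusted p = 0.0342) or Aclyf/f adipocyte library 1 (0.25, adjusted p = 0.0442). With Acly loss the intervals ran from -0.44 to 0.07 in preadipocytes and from -0.17 to 0.34 in adipocytes.

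The Per genes encode inhibitors whose amounts cycle. Per1 (chromosome 11, 69095217 to 69109960, plus strand), an E-box gene that glucocorticoids and cAMP also induce rapidly, had preadipocyte levels of 6.29, 6.13 and 6.40 FPKM with Acly and 5.79, 5.86 and 6.72 FPKM without. Adipocyte levels were 37.4, 34.8 and 34.7 FPKM with Acly and 26.1, 26.4 and 21.9 FPKM without. Preadipocytes of both genotypes overlapped, while the adipocyte groups were apart, with the lower values in Acly-/- cells. The rise was 5.68-fold with Acly (log2 fold change 2.33, SE 0.09, adjusted p = 1.81e-11) and 4.05-fold without (1.85, SE 0.09, adjusted p = 5.14e-10), and these differed by -0.48 (adjusted p = 0.00513). Per1 was thus 1.44-fold lower in Acly-/- adipocytes (adjusted p = 0.000207), with -0.03 in preadipocytes (interval -0.22 to 0.15, adjusted p = 0.794).

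Per3 (chromosome 4, 151003652 to 151044665, minus strand), whose start site has the pair of D-boxes shown above, moved in opposite directions with Acly loss at the 2 stages. Preadipocytes held 6.02, 6.05 and 5.89 FPKM with Acly and 9.93, 11.1 and 11.8 FPKM without, and adipocytes 34.1, 36.7 and 39.3 FPKM with Acly and 22.7, 21.0 and 19.4 FPKM without. No groups overlapped. Per3 was 1.83-fold higher in Acly-/- preadipocytes (0.77, SE 0.08, adjusted p = 9.09e-06) and 1.74-fold lower in Acly-/- adipocytes (-0.77, SE 0.08, adjusted p = 4.92e-06). Its rise with differentiation was 6.13-fold in Aclyf/f and 1.92-fold in Acly-/- cells, a difference of -1.55 (SE 0.12, adjusted p = 3.28e-07).

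Per2 (chromosome 1, 91415982 to 91459324, minus strand), whose loss disturbs rhythms in mice, showed the same crossing at a lower amplitude. Preadipocyte levels were 5.05, 5.21 and 6.14 FPKM with Acly and 7.96, 8.55 and 8.34 FPKM without. In adipocytes they were 8.54, 8.04 and 8.38 FPKM with Acly and 7.37, 6.43 and 5.26 FPKM without. Acly-/- preadipocytes and Aclyf/f adipocytes overlapped at the top, and the other groups overlapped at the bottom. On differentiation Per2 rose 1.52-fold in controls (0.53, adjusted p = 0.00042) and fell 1.30-fold in Acly-/- cells (-0.35, adjusted p = 0.0111), a difference of -0.88 (SE 0.15, adjusted p = 0.000296). It was 1.51-fold higher in Acly-/- preadipocytes (adjusted p = 0.00126) and 1.31-fold lower in Acly-/- adipocytes (-0.35, adjusted p = 0.0115). Without Acly-/- adipocyte library 3, the lowest of its group, neither the fall in Acly-/- cells (-0.23, adjusted p = 0.0548) nor the adipocyte difference (-0.24, adjusted p = 0.0547) was called.

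The cryptochromes are the inhibitors that hold ARNTL and CLOCK silent. Cry2 (chromosome 2, 92403646 to 92434043, minus strand) gave 7.61, 6.03 and 5.31 FPKM in control preadipocytes and 7.05, 7.75 and 8.53 FPKM in those without Acly. Adipocytes held 26.7, 27.6 and 27.6 FPKM with Acly and 15.8, 15.6 and 15.5 FPKM without, so that the adipocyte groups stood well apart and the preadipocyte groups overlapped. The rise was 4.32-fold in Aclyf/f and 2.01-fold in Acly-/- cells (1.96 and 0.92, adjusted p = 7.49e-10 and 3.69e-06), a difference of -1.04 (SE 0.15, adjusted p = 6.45e-05). In Acly-/- adipocytes Cry2 was 1.75-fold lower (-0.77, adjusted p = 3.14e-05). The preadipocyte difference was at the threshold (0.27, adjusted p = 0.0489), and the call ended on leaving out any of 10 libraries and under 4 other settings, with 0.17 (adjusted p = 0.22) without Aclyf/f preadipocyte library 3 as its smallest value.

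Cry1 (chromosome 10, 85131700 to 85185064, minus strand), which has the E-box and its variant before its start site, gave 7.04, 4.71 and 5.90 FPKM in control preadipocytes and 5.95, 7.35 and 6.08 FPKM in those without Acly. Adipocytes held 9.15, 8.47 and 9.37 FPKM with Acly and 5.04, 4.62 and 4.61 FPKM without. Aclyf/f adipocytes lay above all other libraries, while the Aclyf/f preadipocytes overlapped both Acly-/- groups. With differentiation Cry1 rose 1.53-fold in Aclyf/f cells (0.55, adjusted p = 0.00076) and fell 1.36-fold in Acly-/- cells (-0.37, adjusted p = 0.0141), a difference of -0.92 (SE 0.17, adjusted p = 0.00048). The fall was not called without Acly-/- preadipocyte library 2 (-0.29, adjusted p = 0.0669). Acly-/- adipocytes had 1.89-fold less Cry1 (-0.80, adjusted p = 6.87e-05), and in preadipocytes the difference was 0.12 (interval -0.13 to 0.38, adjusted p = 0.418).

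Nr1d1 and Nr1d2 encode repressors of Arntl. Nr1d1 (chromosome 11, 98767932 to 98775333, minus strand) gave 7.72, 8.54 and 8.54 FPKM in control preadipocytes and 7.79, 8.92 and 10.3 FPKM in those without Acly. Adipocytes gave 37.8, 39.9 and 38.6 FPKM with Acly and 40.8, 43.3 and 38.6 FPKM without. Genotypes overlapped at both stages, and all adipocyte libraries lay above all preadipocyte libraries. The rise was 4.69-fold with Acly (2.10, SE 0.09, adjusted p = 9.49e-11) and 4.53-fold without (2.07, SE 0.09, adjusted p = 2.96e-10). These rises differed by -0.03, with an interval of -0.31 to 0.24 (adjusted p = 0.851). The estimates for the Per and Cry genes and Dbp, -0.48 to -1.61, lie outside it. The interval of Per1, -0.74 to -0.22, overlaps that of Nr1d1, and genes were not tested against each other.

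Nr1d2 (chromosome 14, 18204054 to 18239127, minus strand) was the most abundant of the 10 in preadipocytes, at 13.9, 15.8 and 15.7 FPKM with Acly and 18.9, 21.6 and 17.9 FPKM without. Adipocytes held 21.0, 29.0 and 28.6 FPKM with Acly and 31.5, 28.1 and 28.4 FPKM without, and these groups overlapped. Nr1d2 rose 1.73-fold in Aclyf/f cells (0.74, adjusted p = 5.59e-05) and 1.51-fold in Acly-/- cells (0.57, adjusted p = 0.000757), which differed by -0.17 (interval -0.53 to 0.18, adjusted p = 0.4). It was 1.29-fold higher in Acly-/- preadipocytes (0.34, adjusted p = 0.0303). That call ended without Aclyf/f preadipocyte library 1 (0.28, adjusted p = 0.104) or Acly-/- preadipocyte library 2 (0.27, adjusted p = 0.115), on scaling to 1 FPKM sum (0.25, adjusted p = 0.176) and with no filter on low values (0.34, adjusted p = 0.104).

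Dbp (chromosome 7, 45705088 to 45710203, plus strand), the output factor that acts on D-boxes, had the widest range. Preadipocytes held 3.12, 3.67 and 3.75 FPKM with Acly and 6.03, 5.10 and 7.85 FPKM without, and adipocytes 59.0, 52.1 and 48.5 FPKM with Acly and 26.3, 26.1 and 30.0 FPKM without. No groups overlapped, so that Acly loss went with more Dbp before differentiation and with less after it. The preadipocyte level was 1.80-fold higher (0.69, SE 0.12, adjusted p = 0.000633) and the adipocyte level 1.94-fold lower (-0.93, SE 0.12, adjusted p = 3.2e-05). Dbp rose 15.1-fold in Aclyf/f cells (3.58, adjusted p = 1.05e-11) and 4.34-fold in Acly-/- cells (1.97, adjusted p = 1.31e-08), a difference of -1.61 (SE 0.18, adjusted p = 7.36e-06). Its lowest library rests on about 39 fragments, the fewest of any clock gene and library, by the estimated depth and the longest GENCODE transcript.

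Acly loss in preadipocytes thus went with higher levels of Arntl, Per2, Per3, Cry2, Nr1d2 and Dbp. Limma called 6 of the 10 genes higher, where 42.2% of all genes tested were called and 19.7% were called higher, and 0 lower, where 22.4% were, also at an unadjusted p under 0.05. The median log2 fold change was 0.31, against -0.01 over all genes tested. In adipocytes Arntl was again higher, while Per1, Per2, Per3, Cry1, Cry2 and Dbp were lower, which made 1 call upward and 6 downward, where 54.8% of all genes were called (25.6% higher and 29.2% lower). There the median was -0.43, against -0.02 over all genes tested. Per2, Per3, Cry2 and Dbp were called higher in Acly-/- preadipocytes and lower in Acly-/- adipocytes, 4 of 10, a combination found in 4.75% of all genes tested, and for Cry2 it rests on the preadipocyte call at the threshold. This combination was not among the planned results, and its share among the clock genes was not tested. Scaling moved the split of all calls: rises made up 46.8% in preadipocytes and 46.7% in adipocytes, but 34.7% and 36.4% when libraries were scaled to 1 FPKM sum, where 4 and 6 clock genes were called.

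**Figure D3:**
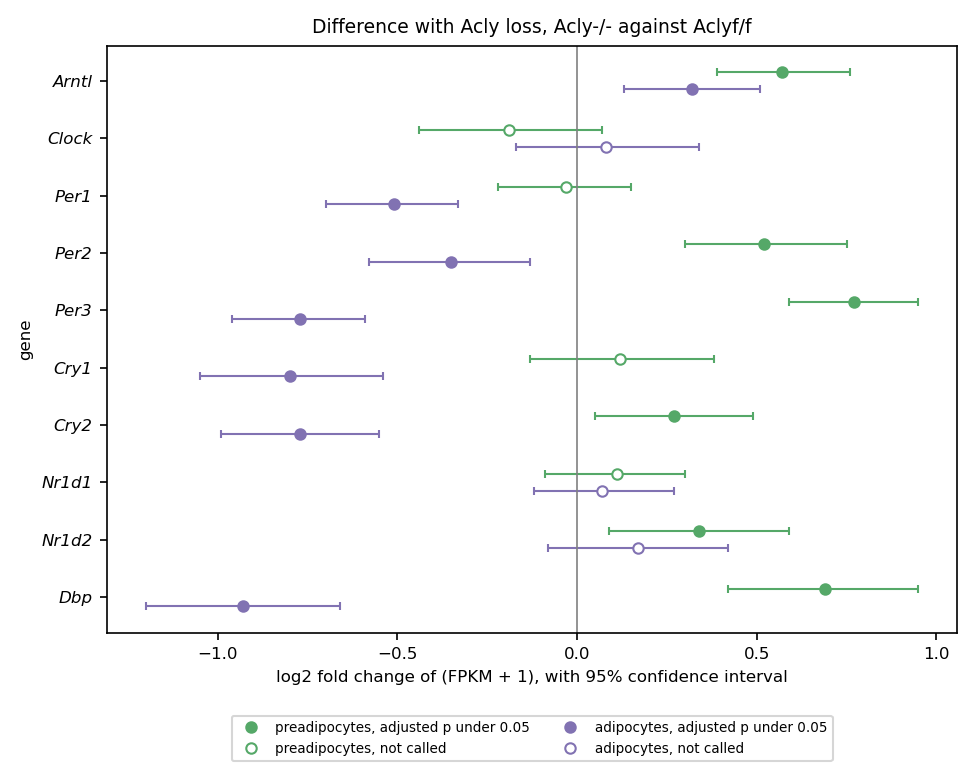
Difference between Acly-/- and Aclyf/f cells (x axis, log2 fold change of FPKM + 1) for each core clock gene (y axis) in preadipocytes and adipocytes, with 95% confidence intervals; filled points passed an adjusted p of 0.05. Per3 and Dbp stand at 0.77 and 0.69 in preadipocytes and at -0.77 and -0.93 in adipocytes, while Arntl stands to the right of 0 at both stages.

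Between genotypes, the ranges of Arntl, Per2, Per3, Nr1d2 and Dbp did not overlap in preadipocytes (49.9% of all genes tested), nor did those of Arntl, the Per and Cry genes and Dbp in adipocytes (63.2%). Between stages, all clock genes but Clock were apart in Aclyf/f cells (75.7%) and in Acly-/- cells (64.6%). Ordered by level, Arntl, Per3 and Dbp separated all 4 groups with no overlap between neighbours. For Per3 and Dbp the order from low to high was Aclyf/f preadipocytes, Acly-/- preadipocytes, Acly-/- adipocytes and Aclyf/f adipocytes, and Cry2 had the same order with overlapping preadipocytes. The order for Arntl ran from Aclyf/f adipocytes through Acly-/- adipocytes and Aclyf/f preadipocytes to Acly-/- preadipocytes. Acly-/- adipocytes lay between Aclyf/f adipocytes and the preadipocytes for Per1, Per3, Cry2, Dbp and Arntl, at the bottom for Cry1, and beside the Aclyf/f adipocytes for Nr1d1 and Nr1d2.

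In accompanying lists, counts of called genes are to be read against the shares over all genes tested: 42.2% for Acly loss in preadipocytes, 54.8% in adipocytes, 72.5% and 61.4% for differentiation in Aclyf/f and Acly-/- cells, and 50.2% for the difference. Of 11 other genes of the transcription loops, 8 were tested, and Npas2, Rorb and Hlf were too low, at most 1.05 FPKM in any library. With differentiation 5 rose and 2 fell in Aclyf/f cells and 6 rose and 1 fell in Acly-/- cells, and all 8 differed between genotypes in this change, 5 downward and 3 upward in Acly-/- against Aclyf/f cells. The 7 calls in Acly-/- cells became 4 without Acly-/- adipocyte library 2, and the 8 became 5 without Acly-/- adipocyte library 1 or 3. These counts include Bhlhe41, which reached 1 FPKM only in Acly-/- adipocytes and so entered the test only through the group where it was high. Ciart, which encodes the repressor CHRONO, traced the pattern of Dbp, at 2.29 ± 0.293 and 5.64 ± 0.553 FPKM (SD, n = 3) in Aclyf/f and Acly-/- preadipocytes and 29.6 ± 1.77 and 14.3 ± 2.05 FPKM in adipocytes. It was 2.46-fold higher (adjusted p = 6.02e-06) and then 2.07-fold lower (adjusted p = 3.6e-06) without Acly. Bhlhe40, the E-box repressor DEC1, likewise went from 1.47-fold higher (adjusted p = 0.000117) to 1.63-fold lower at 61.4 ± 2.88 FPKM (adjusted p = 7.86e-06).

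Rora, a nuclear receptor gene whose product activates Arntl at the sites where REV-ERB proteins repress it, rose with differentiation and rose less without Acly. Rora libraries of Aclyf/f cells held 2.26 to 3.29 FPKM as preadipocytes and 12.4 to 17.1 FPKM as adipocytes, a rise of 5.35-fold (adjusted p = 1.23e-08). Rora went from 1.87 ± 0.307 to 5.65 ± 0.838 FPKM in Acly-/- cells, 3.02-fold (adjusted p = 5.56e-06). Its adipocyte level was 2.66-fold lower without Acly (-1.27, adjusted p = 5.81e-06). Rora was also 1.5-fold lower in Acly-/- preadipocytes (-0.41, adjusted p = 0.0339). That call ended with the replicate block (adjusted p = 0.0554), with no filter on low values (0.117) and without library 1 or 3 of either preadipocyte group. The difference between the genotypes' changes was -0.86 (adjusted p = 0.00308). Tef, which encodes a D-box factor related to DBP, rose 2.25-fold to 81.0 ± 0.963 FPKM in Aclyf/f cells (1.15, adjusted p = 1.13e-08) and 1.5-fold to 75.6 ± 7.38 FPKM in Acly-/- cells (0.57, adjusted p = 2.3e-05). It was 1.4-fold higher in Acly-/- preadipocytes (0.47, adjusted p = 0.000299), while in adipocytes the genotypes differed by -0.10 (interval -0.27 to 0.06, adjusted p = 0.278). The 3 loop genes with an upward difference, named after their values were seen, were Bhlhe41 (0.80), the paralogue of Bhlhe40, Arntl2 (0.44, adjusted p = 0.0139) and Nfil3 (0.37, adjusted p = 0.0314). Bhlhe41 had a mean of 1.84 FPKM in Acly-/- adipocytes and at most 0.634 FPKM in any library of the other groups. It passed the filter only through the group where it was high, so its call is no support for a difference.

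Enzymes that modify or degrade clock proteins had median log2 fold changes between -0.10 and 0.07 in the 5 contrasts. Of 17 tested, 0 were higher (also at an unadjusted p under 0.05) and 2 lower in Acly-/- preadipocytes, and 4 were higher and 6 lower in Acly-/- adipocytes. With differentiation 7 rose and 6 fell in Aclyf/f cells, and 4 rose and 5 fell in Acly-/- cells. The 13 calls in Aclyf/f cells became 8 without Aclyf/f adipocyte library 2 or 3 and with libraries scaled to 1 FPKM sum, and the 2 in preadipocytes became 1 without Acly-/- preadipocyte library 1 and with only the libraries of the contrast. Usp2, a deubiquitinase gene with rhythmic expression in many tissues, rose from 0.791 ± 0.435 to 22.3 ± 1.38 FPKM in Aclyf/f and from 0.768 ± 0.206 to 7.03 ± 0.231 FPKM in Acly-/- cells, and was 3.17-fold lower in Acly-/- adipocytes (adjusted p = 1.24e-06). Fbxw7, a ubiquitin ligase subunit that acts on REV-ERBalpha, fell 1.95-fold in Aclyf/f cells (adjusted p = 1.08e-05) and stood at 4.95 ± 0.72 and 5.32 ± 0.349 FPKM in Acly-/- preadipocytes and adipocytes (adjusted p = 0.448). Both catalytic subunits of AMPK, which phosphorylates CRY1, were among the 4 that moved most. Prkaa2 stood at 1.59 ± 0.22 FPKM in control and 0.383 ± 0.102 FPKM in Acly-/- adipocytes. It reached 1 FPKM only in Aclyf/f adipocytes, with at most 0.501 FPKM in any other library. Prkaa2 thus entered the test only through the group where it was high. Its calls, which the counts above include, are therefore no support for a difference. The more abundant Prkaa1 rose 1.83-fold with differentiation in Acly-/- cells to 46.5 ± 1.94 FPKM (adjusted p = 5.72e-06). With Acly loss Prkaa1 was lower in preadipocytes (-0.37, adjusted p = 0.00952). In adipocytes it was not called (0.24, adjusted p = 0.0574), but was with quantile normalization (0.29, adjusted p = 0.0268).

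Of 19 cofactors of clock proteins, 10 fell and 4 rose with differentiation in Aclyf/f cells, and 11 fell and 3 rose in Acly-/- cells, with medians of -0.31 and -0.30. With Acly loss 2 were higher and 5 lower in preadipocytes, and 3 were higher and 3 lower in adipocytes. The 7 calls in preadipocytes became 4 without Aclyf/f preadipocyte library 1 or 2 and with only the libraries of the contrast. Nampt, which makes NAD+ for the deacetylase SIRT1 and is itself an E-box gene, rose 11.5-fold to 419 ± 49.7 FPKM in Aclyf/f cells (3.49, adjusted p = 2.25e-12) and 9.05-fold to 455 ± 28.8 FPKM in Acly-/- cells (3.16, adjusted p = 1.75e-11). In adipocytes its genotypes differed by 0.12 (interval -0.10 to 0.35, adjusted p = 0.332). Sfpq, an RNA-binding protein of the PER complex, fell 2.29-fold in Aclyf/f and 1.43-fold in Acly-/- cells, and was 1.34-fold higher in Acly-/- adipocytes (adjusted p = 0.000141). Kmt2a, a histone methyltransferase gene, fell 1.96-fold and 1.5-fold, and Tbl1x, of the NCOR complex, rose 1.60-fold and 1.83-fold, in the same order (adjusted p at most 0.000511).

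Receptors and fast-responding genes of the signals that reset the clock were split, with 8 rises and 9 falls among 19 tested in Aclyf/f cells and 7 of each in Acly-/- cells. Those that moved most are glucocorticoid-induced genes. Fkbp5, a chaperone of the glucocorticoid receptor, rose 18.4-fold to 324 ± 7.81 FPKM in Aclyf/f cells (adjusted p = 8.37e-15) and 10.6-fold to 246 ± 8.76 FPKM in Acly-/- cells (adjusted p = 1.44e-13), and was 1.32-fold lower in Acly-/- adipocytes (adjusted p = 0.000249). Tsc22d3 (GILZ) came to 206 ± 11.3 FPKM in control and 505 ± 20.3 FPKM in Acly-/- adipocytes, 2.45-fold higher (adjusted p = 1.35e-07), and was also 3.17-fold higher in Acly-/- preadipocytes (adjusted p = 4.39e-08). The metallothionein gene Mt2 reached 2286 ± 84.7 and 537 ± 17.1 FPKM, 4.26-fold lower without Acly (adjusted p = 2.54e-08), and the zinc finger factor Zbtb16, under 0.1 FPKM as a mean in preadipocytes, 31.2 ± 0.402 and 23.2 ± 2.53 FPKM (adjusted p = 0.00119, but 0.0578 with a pseudocount of 0.1 FPKM). In adipocytes these glucocorticoid-induced genes differed between genotypes in both directions. The part of glucocorticoids in the Per1 difference was not tested. Their changes with differentiation differed by -1.05 for Mt2 and -0.77 for Fkbp5. Sgk1 and Klf9, also glucocorticoid-induced and named after their values were seen, had differences of 1.21 (adjusted p = 2.53e-07) and 1.09 (adjusted p = 7.01e-06). Sgk1 fell in both genotypes, by -1.62 in Aclyf/f and -0.41 in Acly-/- cells. Klf9 rose in both (1.62 and 2.71). Without Acly, Klf9 was lower in preadipocytes (-1.30, adjusted p = 6.5e-08) and in adipocytes (-0.21, adjusted p = 0.0472). Dusp1 of the same list had -0.02 (adjusted p = 0.915). With Acly loss the list held 6 rises and 7 falls in preadipocytes, and 5 and 6 in adipocytes, where the 11 calls became 7 without Aclyf/f adipocyte library 3 and with no filter on low values.

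**Figure D4:**
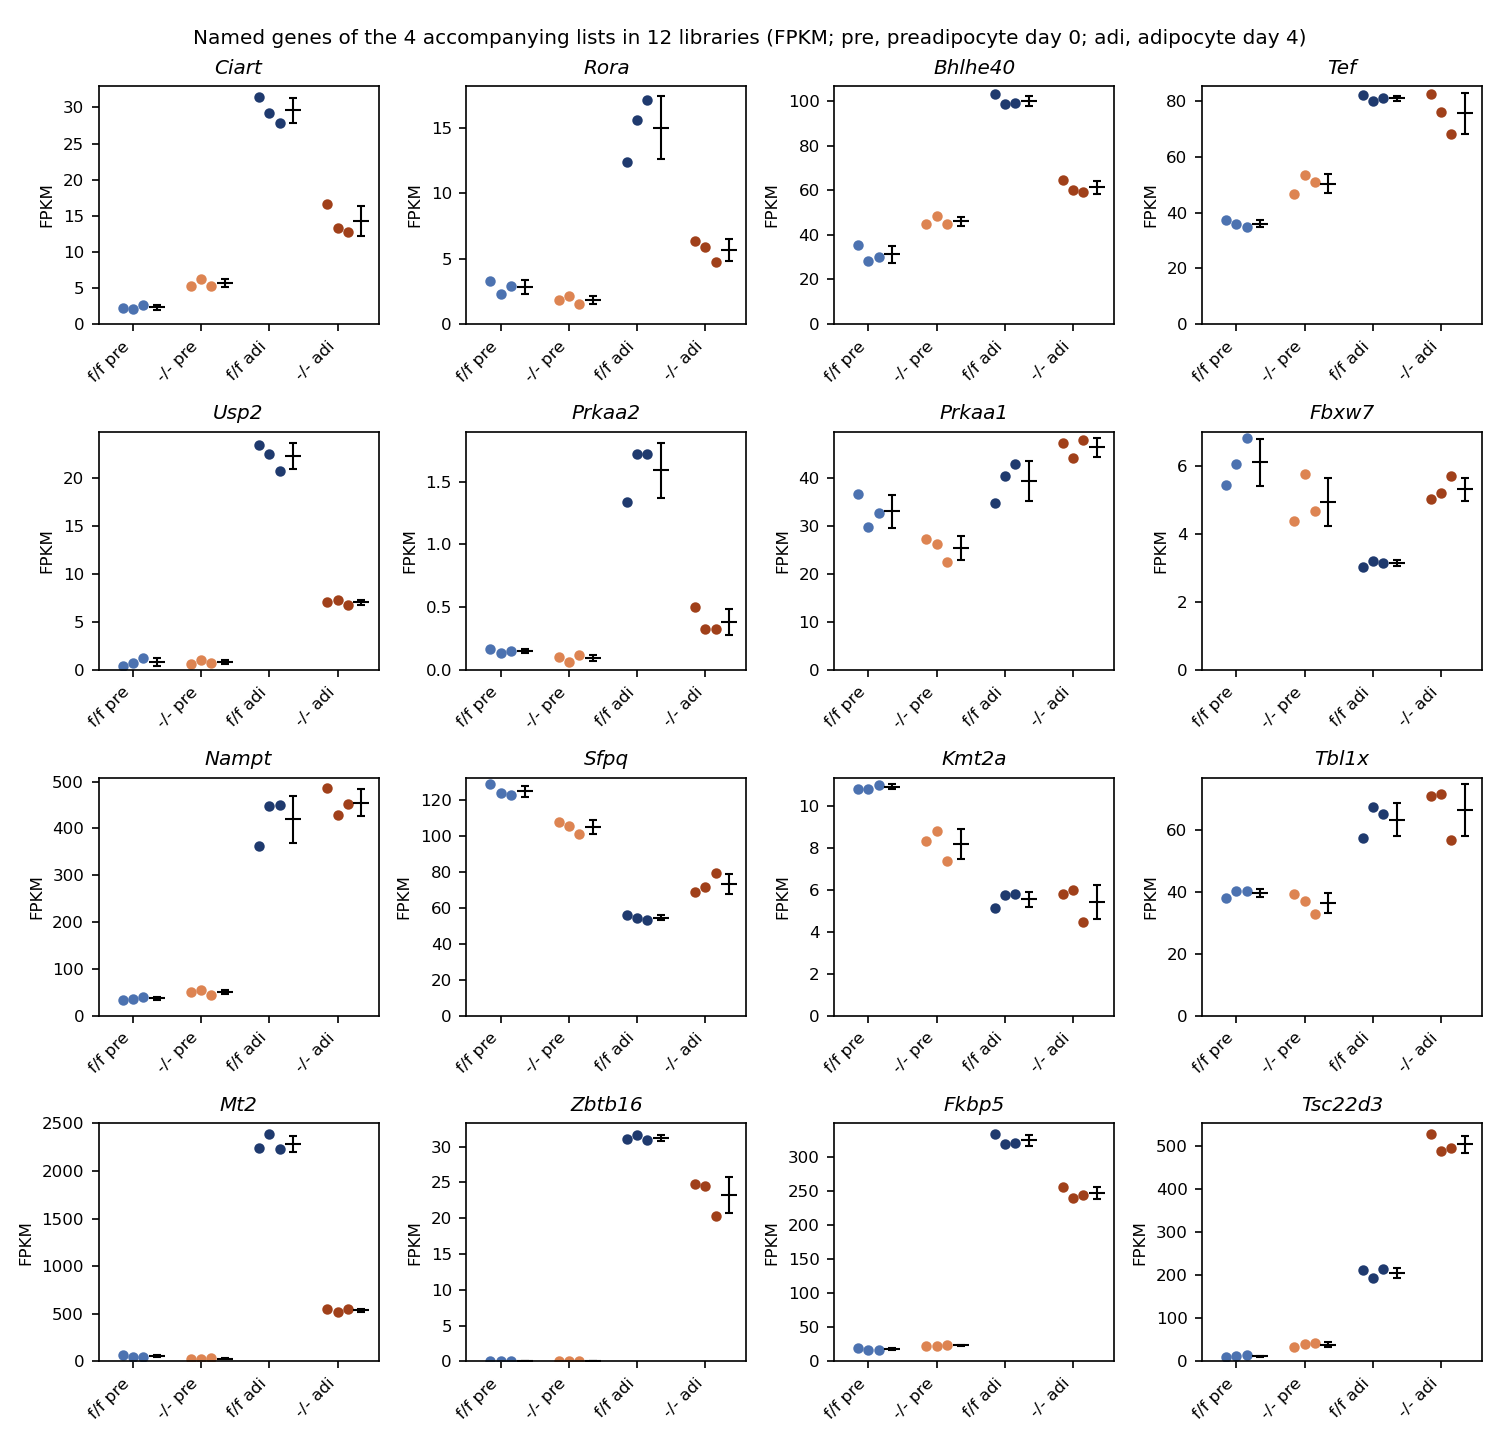
FPKM in 12 libraries (points) of the 4 genes with the largest log2 fold change in each accompanying list, by row: other loop genes, turnover enzymes, cofactors and clock-resetting signals, with the mean and SD of 3 libraries as a bar and axes starting at 0. Ciart and Bhlhe40 are highest in Aclyf/f adipocytes and lowest in Aclyf/f preadipocytes, whereas Tsc22d3 is highest in Acly-/- adipocytes at 505 FPKM.

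Among 10 tested genes known as clock or D-box targets, Acly loss went with 3 higher and 3 lower in preadipocytes and with 4 higher and 6 lower in adipocytes. With differentiation 7 rose and 3 fell in Aclyf/f cells, and 5 rose and 3 fell in Acly-/- cells. The 6 calls in preadipocytes became 3 on leaving out library 1 of the Aclyf/f or library 3 of the Acly-/- preadipocytes.

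Some clock genes share exon bases with a neighbour, and the handling of strand is not stated, so that fragments of such stretches cannot be assigned with certainty. Dbp shares 539 exon bases with Sphk2, a sphingosine kinase gene on the other strand, which also rose, 2.71-fold in Aclyf/f and 1.65-fold in Acly-/- cells, to 19.2 and 13.3 FPKM as means. Nr1d1 shares 263 exon bases with Thra, the thyroid hormone receptor gene on the other strand. Thra went its own way, with means of 44.7 and 29.1 FPKM in Aclyf/f and Acly-/- preadipocytes (adjusted p = 0.000108) and adipocyte libraries of 46.4 to 54.1 and 42.5 to 50.4 FPKM (adjusted p = 0.225). Cry2 shares 295 exon bases with D930015M05Rik on the other strand, which stood at no more than 1.96 FPKM as a mean. Arntl shares 33 with Gm45355, which was not analysed here. Per3 lies inside the span of Camta1, and Clock is listed under the same locus as Tmem165, with no exon bases shared with Camta1 in GENCODE and no overlap of the Clock and Tmem165 gene bodies there.

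Genes whose profile over the 12 libraries was most like a clock gene, by Pearson r of log2 values and with no test, were as follows. For Dbp they were Itpka (r = 0.997), Chchd6 (0.996) and Slc25a39 (0.996), and for Nr1d1 they were G0s2, A630077J23Rik and Trim29 (each 0.996). Arntl was most like Asap3 (0.988), Timp3 (0.988) and Mtcl1 (0.987), and Per2 was most like Ern1 (0.979), Agap1 (0.922) and Fads1 (0.919). The 12 points fall into 4 groups, so such values mostly describe the order and spacing of the group means.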

How the data were processed

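Values were deposited by the authors as FPKM, per the file headers, 1 column per library for 24341 genes, with a floor of 0.01 FPKM. Tools listed in the submitters' processing notes, with no role given, are Cufflinks 2.2.1, Bowtie2 2.2.6 and bcl2fastq, with build mm10. The filter behind the table, the annotation and the use of strand are not stated, and gene positions are from GENCODE M21 on the same build. Counts were not used here. Depth was estimated from the steps of low values (under 0.3 FPKM) and transcripts of at least 3000 bases. The ratio of depths between libraries was checked on simulated data, and the absolute scale was not. For 5 contrasts, limma 3.58.1 (R 4.3.3) was run on log2(FPKM + 1), with the 4 groups of all 12 libraries in 1 model and a variance trend. The labels state no test. Summaries used Python 3.11.15, numpy 2.4.6 and pandas 2.3.3, and figures matplotlib 3.10.9. The fit was tested on simulated data.

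The clock genes, lists and tests were chosen with earlier results of these data known. All 10 clock genes are named, as are the 4 tested genes of largest absolute log2 fold change in each of 4 lists, overlapping neighbours (1 gene of the loop list is not reported here), and the 3 genes most like each of Arntl, Per2, Nr1d1 and Dbp. Same-numbered libraries deviated together in every pair (r = 0.123, 0.147 and 0.124) for differentiation in Acly-/- cells, but not in the other contrasts, and the labels do not say what a number marks. Alternatives were the pseudocount, the filter, 3 rescalings, the libraries in the fit, the replicate block and leaving out each library. The block limited to the libraries of that contrast was added after seeing the data.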

Additional observations from a re-analysis of the deposited data

Results flagged for a closer look

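The change with differentiation differed between Acly-/- and Aclyf/f cells for these genes in limma's test of the difference itself (adjusted p under 0.05), given here as the difference of log2 fold changes. Among the clock genes it was -0.48 for Per1, -0.88 for Per2, -1.55 for Per3, -0.92 for Cry1, -1.04 for Cry2 and -1.61 for Dbp. Among the accompanying genes of the loops it was -2.02 for Ciart, -0.86 for Rora, -1.24 for Bhlhe40 and -0.58 for Tef, while Bhlhe41 (0.80), Arntl2 (0.44) and Nfil3 (0.37), named after their values were seen, went the other way. Bhlhe41 passed the filter only through Acly-/- adipocytes, where it was high, so its call is no support for a difference. Turnover enzymes had -1.54 for Usp2, -0.83 for Prkaa2, 0.61 for Prkaa1 and 0.87 for Fbxw7, and the cofactor gene Sfpq had 0.67. Prkaa2 passed the filter only through Aclyf/f adipocytes, where it was high, so its call is no support for a difference. Glucocorticoid-induced genes had -1.05 for Mt2, -0.40 for Zbtb16 and -0.77 for Fkbp5, of which Zbtb16 was not called with a pseudocount of 0.1 FPKM (-0.28, adjusted p = 0.39). Sgk1 (1.21) and Klf9 (1.09), also glucocorticoid-induced and named after their values were seen, went the other way. For Sgk1 this was a smaller fall in Acly-/- cells, and for Klf9 a larger rise from a lower preadipocyte level. Groups of 3 libraries are too small for a test of outlying samples.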

How the results depend on the processing

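Each called clock gene kept its direction under every alternative run. Over the 10 genes and 5 contrasts, 915 of 950 values under an alternative kept direction and side of the threshold, 22 lost a call, 3 gained one and 10 changed sign. All 10 were near 0 and not called: Clock gave -0.04 with Acly loss in adipocytes and 0.10 for differentiation in Aclyf/f cells without Aclyf/f adipocyte replicate 1, and 0.01 for the latter without Aclyf/f preadipocyte replicate 3. Per1 gave 0.0009 in preadipocytes without Acly-/- preadipocyte replicate 1, and Cry1 -0.0027 without Aclyf/f preadipocyte replicate 2. Nr1d1 gave -0.01 in adipocytes with libraries scaled to 1 FPKM sum, and for the difference between the differentiation contrasts 0.01 with quantile normalization, 0.01 without Aclyf/f preadipocyte replicate 1 or Acly-/- adipocyte replicate 3, and 0.06 without Acly-/- preadipocyte replicate 3. Accompanying genes changed sign at values not called: Usp2 in preadipocytes -0.03, -0.16, -0.02 and -0.09, Kmt2a in adipocytes 0.02 and 0.08, and Tbl1x in adipocytes -0.02 and -0.01. On leaving out each library in turn, Clock ran from -0.04 to 0.15 with Acly loss in adipocytes and from -0.09 to 0.10 for differentiation in Aclyf/f cells, Per1 from -0.09 to 0.0009 and Cry1 from -0.0027 to 0.24 in preadipocytes, and the Nr1d1 difference from -0.12 to 0.06. Usp2 ran from -0.16 to 0.18 in preadipocytes, and Kmt2a from -0.10 to 0.08 and Tbl1x from -0.01 to 0.17 in adipocytes. The cause was not tested.

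The number of clock genes called was 6 for Acly loss in preadipocytes (4 to 6 on leaving out a library), 7 in adipocytes (6 to 7), 9 for differentiation in Aclyf/f cells (9 each time) and in Acly-/- cells (8 to 10), and 6 for the difference (6 each time). With the replicate block they were 5, 7, 9, 9 and 6, and 10 for Acly-/- differentiation with only its libraries. The block in all 12 libraries ended 1 call of a clock gene, Cry2 in preadipocytes (adjusted p = 0.0777). Over all genes, leaving out a library gave 4002 to 5098, 5614 to 6706, 7963 to 8673, 6557 to 7330 and 5249 to 5797 calls, in the same order. The fit limited to a contrast's libraries was not run for the difference, which uses all 12. Depth limits genes under 0.3 FPKM, such as Zbtb16 in preadipocytes.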
